A study of Mus musculus with 16 samples.

Results

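Polyamines are made and broken down by a small set of enzymes, and 9 genes of this set were chosen by name: the synthesis genes Odc1, Srm, Sms and Amd1, the regulators Azin1 and Oaz1, and the catabolic genes Smox, Sat1 and Paox. A gene was used when a row of the array carried its symbol and no other, which gave a value for 6 of the 9 genes, out of 22180 genes with such a row. Sms shares its row with the pseudogene Sms-ps, and Amd1 and Paox had no row of their own, so no values are given for these 3. The 6 genes lay above the array's median signal on all 16 arrays, and all 6 were among the 13555 genes tested. Liver RNA was measured with 1-colour Affymetrix arrays in 8 mice on the C57BL/6J background, aged 18 months. The 4 MYC mice carried a c-MYC transgene that woodchuck hepatitis virus sequences drive in the liver (labelled MYC+/+, REG3A-/-). The 4 MYC/REG3A mice carried the same transgene together with one for REG3A, a secreted lectin (labelled MYC+/+, REG3A+/+); the labels do not name the promoter of that transgene. Every mouse therefore carried c-MYC, and the tumour and the non-tumour tissue of a mouse were put on 1 array each, which made 4 groups of 4 arrays.

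Polyamine synthesis starts from ornithine, which ornithine decarboxylase turns into putrescine. Spermidine synthase and spermine synthase then add aminopropyl groups that come from decarboxylated S-adenosylmethionine, the product of the Amd1 enzyme. Antizyme binds ornithine decarboxylase and sends it to the proteasome, and antizyme inhibitor, a relative of the enzyme without its activity, takes antizyme away. In the opposite direction, spermidine/spermine acetyltransferase and 2 amine oxidases, encoded by Smox and Paox, lead spermine and spermidine back towards putrescine. The ornithine decarboxylase gene is a textbook target of MYC, and the enzyme is highly regulated in growing liver.

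The non-tumour livers lay close together on the first principal component of the tested genes (-31 to -26.4), and 6 of the 8 tumours lay at 32.7 to 42.3. Those of MYC/REG3A mice 2 and 4 had intermediate values, -4.21 and 2.55, and the SD of change over all tested genes was 0.336 and 0.429 in these mice against 0.624 to 0.729 in the other 6 mice. Hepatocyte markers were high on every array (mean log2 level of 10 genes 11.27 to 11.96). By limma, 7 of 10 Kupffer cell and macrophage markers fell in the tumours of each genotype, as did 7 of 8 sinusoidal endothelial markers in MYC tumours and 5 of 8 in MYC/REG3A tumours. In tumours of the 2 genotypes, in this order, 4 and 1 of 10 hepatocyte markers, 4 and 3 of 8 stellate cell and fibroblast markers, 2 and 0 of 4 bile duct markers, 3 and 3 of 4 B and plasma cell markers and 3 and 0 of 3 neutrophil markers also fell, and 1 of 3 adipocyte markers rose in each. No T and NK cell marker of 4 and no pancreas marker (1 tested) passed. Over all tested genes, 15.8% were called lower in MYC and 4.88% in MYC/REG3A tumours, and 17.4% and 7.58% were called higher. The row of Myc read 7.41 to 7.92 in the MYC non-tumour livers and 6.84 to 7.24 in their tumours, a fall of 0.59 (SE 0.127, limma adjusted p = 0.00673), and 9.24 and 9.37 in the samples of MYC/REG3A mouse 2; whether it detects the transgene was not tested.

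Odc1, which encodes ornithine decarboxylase, the first enzyme of synthesis, was higher in the MYC tumours. Its log2 level was 7.69, 7.95, 7.19 and 7.12 in the non-tumour livers of MYC mice 1 to 4 and 8.21, 8.71, 8.43 and 8.34 in their tumours. Every MYC tumour lay above every MYC non-tumour liver, and the spread was wider among the non-tumour livers (SD 0.399) than among the tumours (SD 0.212). The mean rose from 7.48 to 8.42, by 0.94 on the log2 scale or 1.92-fold (SE 0.163, n = 4 mice, limma adjusted p = 0.00289), and the 4 mice changed by 0.52, 0.77, 1.25 and 1.22. In MYC/REG3A mice 1 to 4 the level was 7.73, 7.78, 8.02 and 7.60 in non-tumour liver and 8.71, 7.99, 8.49 and 7.82 in the tumour. Here the groups overlapped, since the tumours of mice 2 and 4 read less than the non-tumour liver of mouse 3. The mean difference was 0.47 (95% interval 0.11 to 0.83, SE 0.163), higher in 4 of 4 mice, and did not pass over all genes (limma adjusted p = 0.0835). Mice 1 and 3, whose tumours lay with the MYC tumours on the first component, gave 0.98 and 0.48, and mice 2 and 4 gave 0.21 and 0.22. Without mice 2 and 4 the difference was 0.73 (SE 0.225, limma adjusted p = 0.0846), which is no separate test, since these 2 mice changed least on the same arrays.

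Promoter sequence was looked at because Odc1 changed and its antagonist Oaz1 and the catabolic gene Sat1 were not called. The 250 bases before the annotated start were read from RefSeq (GRCm38.p6) and searched on both strands for the E-box CACGTG, which MYC binds, and for a non-canonical variant, CACGCG, whose reverse complement is CGCGTG. A window was found for 7 of the 9 genes, not for Srm or Azin1. Odc1 (chr12:17544623-17544872, plus strand), Oaz1 (chr10:80826406-80826655, plus strand) and Sat1 (chrX:155216450-155216699, minus strand) are printed 5′ to 3′ in gene direction, with matches in capitals.
Odc1: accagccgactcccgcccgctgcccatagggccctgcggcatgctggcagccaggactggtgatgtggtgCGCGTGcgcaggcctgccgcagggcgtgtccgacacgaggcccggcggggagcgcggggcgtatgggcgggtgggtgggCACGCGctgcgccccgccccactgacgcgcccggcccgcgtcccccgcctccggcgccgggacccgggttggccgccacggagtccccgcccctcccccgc
Oaz1: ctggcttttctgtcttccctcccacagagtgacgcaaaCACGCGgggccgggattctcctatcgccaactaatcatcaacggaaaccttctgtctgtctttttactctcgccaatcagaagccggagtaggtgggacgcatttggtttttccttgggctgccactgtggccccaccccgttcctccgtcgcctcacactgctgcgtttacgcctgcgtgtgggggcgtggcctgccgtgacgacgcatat
Sat1: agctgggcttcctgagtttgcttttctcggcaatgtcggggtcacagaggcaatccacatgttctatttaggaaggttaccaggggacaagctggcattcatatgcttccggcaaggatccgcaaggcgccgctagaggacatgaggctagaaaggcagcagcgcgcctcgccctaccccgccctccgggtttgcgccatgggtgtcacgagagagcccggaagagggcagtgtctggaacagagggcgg
Odc1 held 2 matches to the variant, beginning 180 and 101 bases before the start, Oaz1 held 1 and Sat1 held 0, and none of the 3 held CACGTG. Smox and, among the genes without a value, Amd1 and Paox held neither motif, and Sms held CACGTG in 1 of its 2 windows and the variant in the other. Of the further pathway genes named below, Eif5a held CACGTG in some of its windows and Mri1 held the variant. Gatm, Oat, Mtap and Aoc2, all called in MYC tumours, held neither, nor did Oaz2, Dhps and Dohh, which were not called. No window was found for Arg2, Mat1a and Hdac10, also called in MYC tumours, or for Arg1, which was not called. Whether a match goes with a change was not tested. Over all 32851 windows, 6.02% held CACGTG and 7.62% held the variant. Some genes have several windows, and of 27025 genes 6.86% held CACGTG and 8.65% the variant in at least 1 window. A match of 6 bases is a description of the letters and not a binding site, and E-boxes outside these windows were not searched.

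Srm encodes spermidine synthase, the enzyme that makes spermidine from putrescine, and had the largest change among the 6 genes. In MYC mice 1 to 4 it read 8.96, 9.21, 8.72 and 8.42 in non-tumour liver and 10.47, 10.79, 10.26 and 10.20 in the tumours. The 2 groups were far apart and the change was nearly equal in every mouse, at 1.51, 1.57, 1.55 and 1.78. The rise of 1.60 (SE 0.172, 3.04-fold, limma adjusted p = 0.000569) was number 83 by p among the 13555 genes. In MYC/REG3A mice 1 to 4 it read 8.96, 8.99, 9.26 and 8.88 in non-tumour liver and 10.62, 9.81, 9.96 and 9.32 in the tumours. The tumours again all lay above the non-tumour livers, but they ranged from the tumour of mouse 4 just above the non-tumour liver of mouse 3 to that of mouse 1 among the MYC tumours. The mean rose by 0.91 (SE 0.172, 1.88-fold, limma adjusted p = 0.0135), with changes of 1.67, 0.82, 0.70 and 0.44. This call was lost without MYC/REG3A mouse 3 (0.98, SE 0.204, limma adjusted p = 0.052). Without mice 2 and 4 the rise in mice 1 and 3 was 1.18 (SE 0.225, limma adjusted p = 0.022). Mice 2 and 4 changed least over all genes on these same arrays, so this value is no separate test.

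**Figure D1:**
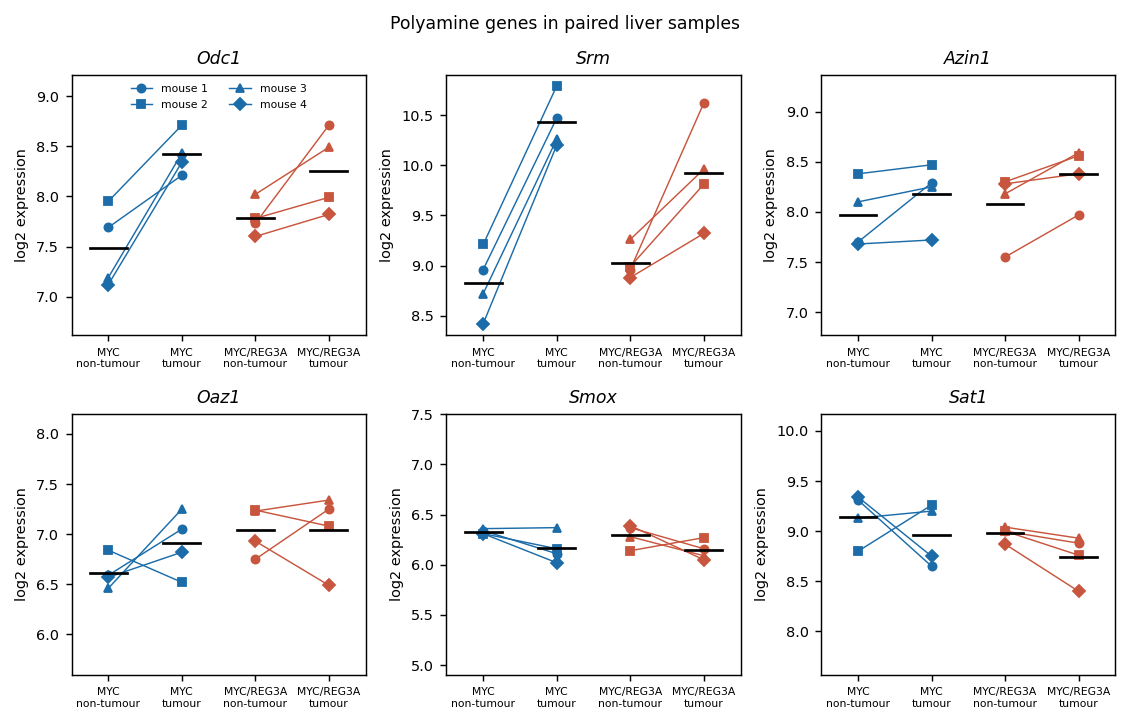
Log2 expression of the 6 measured polyamine genes in each liver sample (y axis, each panel spanning 2.6 log2 units), with lines joining the samples of a mouse, symbols for mice 1 to 4, blue for MYC and red for MYC/REG3A, and black bars for group means. Odc1 and Srm are higher in the tumour of all 8 mice, with lines of similar slope in MYC mice for Srm and uneven lines in MYC/REG3A mice; Oaz1 and Sat1 have lines in both directions in MYC mice.

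The regulators of ornithine decarboxylase moved less. Azin1, which encodes antizyme inhibitor, was above the non-tumour sample in each of the 8 tumours, but by little. In MYC mice 1 to 4 it read 7.70, 8.38, 8.10 and 7.68 in non-tumour liver and 8.29, 8.47, 8.25 and 7.72 in the tumours, so that most of the mean difference of 0.22 (SE 0.115, limma adjusted p = 0.173) came from mouse 1, at 0.58, against 0.05 to 0.15 in the other 3. The MYC/REG3A values were 7.55, 8.30, 8.18 and 8.28 in non-tumour liver, and 7.97, 8.56, 8.59 and 8.38 in the tumours. The difference of 0.30 (95% interval 0.04 to 0.55, SE 0.115) did not pass (limma adjusted p = 0.114). Over all tested genes, 23.4% were higher in 4 of 4 MYC mice and 19.5% in 4 of 4 MYC/REG3A mice. The samples of MYC/REG3A mouse 1 and MYC mouse 4 were the lowest of their group in both tissues.

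Oaz1, which encodes antizyme itself, had no common direction. It read 6.59, 6.84, 6.46 and 6.57 in the non-tumour livers of MYC mice 1 to 4 and 7.05, 6.52, 7.25 and 6.82 in the tumours, higher in 3 mice and lower in mouse 2. The mean difference was 0.29 (95% interval -0.13 to 0.72, limma adjusted p = 0.266). The MYC/REG3A mice 1 to 4 read 6.75, 7.24, 7.23 and 6.93 in non-tumour liver and 7.25, 7.08, 7.34 and 6.49 in the tumours, higher in mice 1 and 3 and lower in mice 2 and 4. There the mean difference was 0.00 (95% interval -0.42 to 0.43, limma adjusted p = 0.996), and without mice 2 and 4 it was 0.31 (SE 0.256, limma adjusted p = 0.493). Another row names both Oaz1 and its pseudogene Oaz1-ps and was not used. The array measures RNA only, and antizyme is controlled at translation.

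Neither catabolic gene passed, and their means lay slightly lower in tumours of both genotypes. Smox, the spermine oxidase, varied little, with 6.34, 6.31, 6.36 and 6.31 in the non-tumour livers of MYC mice 1 to 4 and 6.11, 6.16, 6.37 and 6.02 in the tumours. The MYC non-tumour livers were close together (SD 0.0252), and the tumours of mice 1, 2 and 4 lay below all of them. The mean difference was -0.17 (95% interval -0.40 to 0.07, limma adjusted p = 0.249). In MYC/REG3A mice 1 to 4 the values were 6.37, 6.14, 6.28 and 6.39 against 6.16, 6.27, 6.09 and 6.05, lower in 3 of 4 tumours, with a mean difference of -0.15 (95% interval -0.39 to 0.09, limma adjusted p = 0.372).

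Sat1, the acetyltransferase that starts polyamine breakdown and export, split the MYC mice. It read 9.31, 8.80, 9.13 and 9.34 in non-tumour liver and 8.65, 9.26, 9.20 and 8.75 in the tumours of mice 1 to 4, lower by 0.66 and 0.60 in mice 1 and 4 and higher by 0.46 and 0.07 in mice 2 and 3. The mean difference was -0.18 (95% interval -0.58 to 0.21, limma adjusted p = 0.463). It was lower in 4 of 4 MYC/REG3A tumours, at 9.0, 9.0, 9.04 and 8.87 in non-tumour liver and 8.88, 8.76, 8.93 and 8.40 in the tumours. Among all tested genes 20.9% were lower in 4 of 4 of these mice, and 23.6% in 4 of 4 MYC mice. The mean difference was -0.23 (95% interval -0.63 to 0.16, limma adjusted p = 0.41).

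Among the 6 measured genes 2 were called higher with MYC and 0 lower, where 33.2% of all tested genes were called, 17.4% as higher and 15.8% as lower. In the MYC/REG3A tumours 1 rose and 0 fell, where 12.5% of all tested genes were called, 7.58% as higher and 4.88% as lower. The median change of the 6 genes was 0.25 and 0.15, against -0.03 and -0.02 over all tested genes. With 6 genes these counts are a description. The tumours of Srm stood clear of non-tumour liver in both genotypes and those of Odc1 in MYC mice, which 16% of all tested genes did upwards in MYC mice and 11.2% in MYC/REG3A mice. Beside these rises, the mean log2 level of the 10 Kupffer cell and macrophage markers was 7.91 to 9.16 in MYC and 8.16 to 8.67 in MYC/REG3A non-tumour livers, and 7.24 to 8.02 and 6.86 to 7.87 in the tumours. That of the 8 sinusoidal markers was 8.64 to 9.33 and 8.36 to 8.77 in non-tumour liver, and 7.89 to 8.14 and 7.64 to 8.49 in tumours. In bulk tissue fewer cells of a type and less RNA per cell cannot be told apart. The part of cell composition in the rises of Odc1 and Srm, and in the lower means of Smox and Sat1, was not tested.

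**Figure D2:**
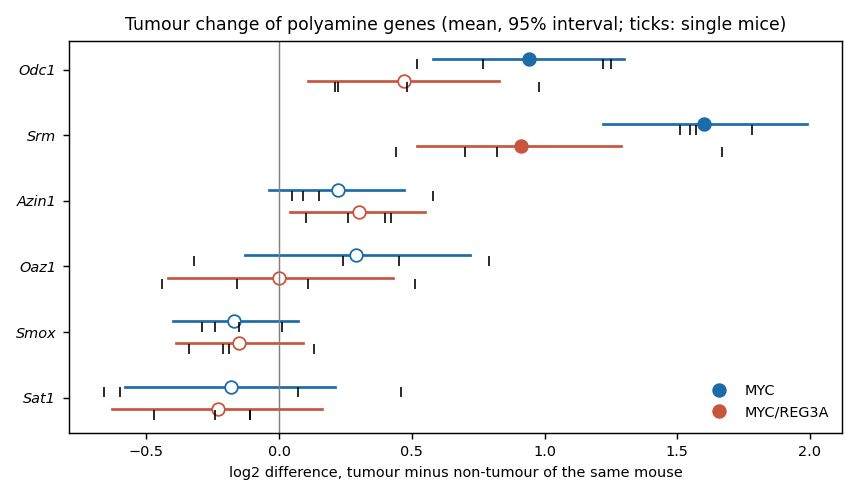
Difference in log2 expression between tumour and non-tumour liver of the same mouse (x axis) for the 6 measured genes, as the mean of 4 mice with limma's 95% interval, filled where limma's adjusted p was below 0.05; black ticks are single mice. Srm is filled in both genotypes and Odc1 in MYC mice, and the intervals of Oaz1, Smox and Sat1 cross 0 in both.

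The addition of REG3A gave no call among these genes. Comparing the genotypes in non-tumour liver, 0 of 6 genes passed by limma, as did 0 of 13555 overall (0%), with 1 of 6 and 739 of 13555 (5.45%) at an unadjusted p below 0.05. That gene was Oaz1, the antizyme gene, at 7.04 in MYC/REG3A and 6.62 in MYC livers, a difference of 0.42 (95% interval 0.01 to 0.82, limma adjusted p = 0.905). Odc1 was 0.30 higher (95% interval -0.15 to 0.74) and Srm 0.20 higher (95% interval -0.29 to 0.69) in the MYC/REG3A livers, with both MYC/REG3A means inside the range of the MYC livers. In the tumours 0 of 6 genes passed, where 0.0221% of all tested genes did (0.00738% higher and 0.0148% lower), and 1 of 6 had an unadjusted p below 0.05, as did 10.6% of all genes. That gene was Srm, at 9.93 in MYC/REG3A tumours and 10.43 in MYC tumours, a difference of -0.50 (95% interval -0.99 to -0.01, limma adjusted p = 0.469), and Odc1 differed by -0.17 (95% interval -0.62 to 0.28). Without MYC/REG3A mice 2 and 4 the Srm difference between tumours was -0.14 and that of Odc1 was 0.18. Mice 2 and 4 changed least over all tested genes on these same arrays. Leaving them out thus selects for MYC/REG3A tumours nearer to the MYC tumours, and these values are no separate test.

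The change from non-tumour liver to tumour in MYC/REG3A mice minus that in MYC mice was -0.69 for Srm (95% interval -1.24 to -0.15, limma adjusted p = 0.873) and -0.47 for Odc1 (95% interval -0.98 to 0.05, limma adjusted p = 0.873). Without MYC/REG3A mice 2 and 4 these were -0.42 and -0.21 (SE 0.276 for both), again with mice selected on the same arrays. Neither difference passed, and 0 of 6 genes did, where 0.00738% of all tested genes passed; at an unadjusted p below 0.05 there were 1 of 6 genes and 5.58% of all genes. The single changes overlapped between genotypes, since MYC/REG3A mouse 1 changed as much as the MYC mice (1.67 for Srm and 0.98 for Odc1). For Azin1, Smox and Sat1 the changes of the genotypes differed by 0.08, 0.02 and -0.05 (95% intervals -0.28 to 0.44, -0.32 to 0.35 and -0.61 to 0.51), and for Oaz1 by -0.29 (-0.89 to 0.31). Such intervals do not show that the genotypes act alike.

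Odc1 and Srm varied together from mouse to mouse, also where no tumour was involved. Across the 8 non-tumour livers, MYC mouse 4 had the lowest level of both genes and MYC/REG3A mouse 3 the highest, and the order of the mice was almost the same (Pearson's r = 0.961, Spearman's rho = 0.976, exact permutation p = 4.96e-05 and 0.000397). Among the 30 relations computed, between all pairs of the 6 genes in each tissue, this was the only one past 0.05 after Benjamini-Hochberg adjustment (adjusted p = 0.00149 and 0.0119). It was 0.984 without the 2 livers farthest from the median of Odc1 and 0.959 with the genotype means removed. Across the 8 tumours the relation was r = 0.849 and rho = 0.786 (exact permutation p = 0.00742 and 0.0279, adjusted p = 0.111 and 0.279). It was r = 0.504 without the 2 tumours farthest from the median of Odc1, those of MYC/REG3A mice 2 and 4. Leaving out extremes of Odc1 also narrows its range, so the fall in r does not show that the relation rests on them. The same 2 tumours are the farthest in the relations of Odc1 with Sat1 and Oaz1 below. Within a genotype each tissue has 4 arrays, too few for a correlation. Relations with genes outside the 6 were not computed within a tissue, so that of Odc1 and Srm is not shown to be particular. Odc1 and Sat1, the opposite ends of the pathway, had r = -0.594 across non-tumour livers and 0.791 across tumours (rho = -0.524 and 0.833, exact permutation p = 0.115 and 0.0203 for r, adjusted p = 0.344 and 0.203; r = -0.212 and 0.629 without the 2 farthest), and Odc1 and Oaz1 had 0.732 and 0.299 (rho = 0.738 and 0.333, exact permutation p = 0.0402 and 0.465 for r, adjusted p = 0.286 and 0.712; r = 0.472 and -0.151 without the 2 farthest).

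The genes whose levels over all 16 arrays were most like Srm were Eif5a (r = 0.974), Atad3a (0.972) and Nol9 (0.97), out of all tested genes with a name other than a predicted model. Eif5a encodes the translation factor that carries hypusine, an amino acid made from spermidine. For Odc1 they were Cox10 (0.951), Hdhd2 (0.937) and Dlst (0.936), none of them on the polyamine lists. Odc1 and Srm had r = 0.936 over the 16 arrays. Those most like Azin1 were Oxld1, Ndufb10 and Hsd3b3 (0.896, 0.821 and 0.819), and those most like Oaz1 were Suclg1, Acad10 and Apol7b (0.847, 0.84 and 0.803). For Smox they were Slc25a35, Ltbr and Slc26a2 (0.851, 0.842 and 0.842), and for Sat1 Unc93b1, Gng2 and Cyrib (0.849, 0.834 and 0.833). The 16 arrays share 8 mice and 2 tissues, so these are descriptions; with the group means removed, r was 0.864 for Srm and Eif5a and 0.872 for Odc1 and Cox10.

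**Figure D3:**
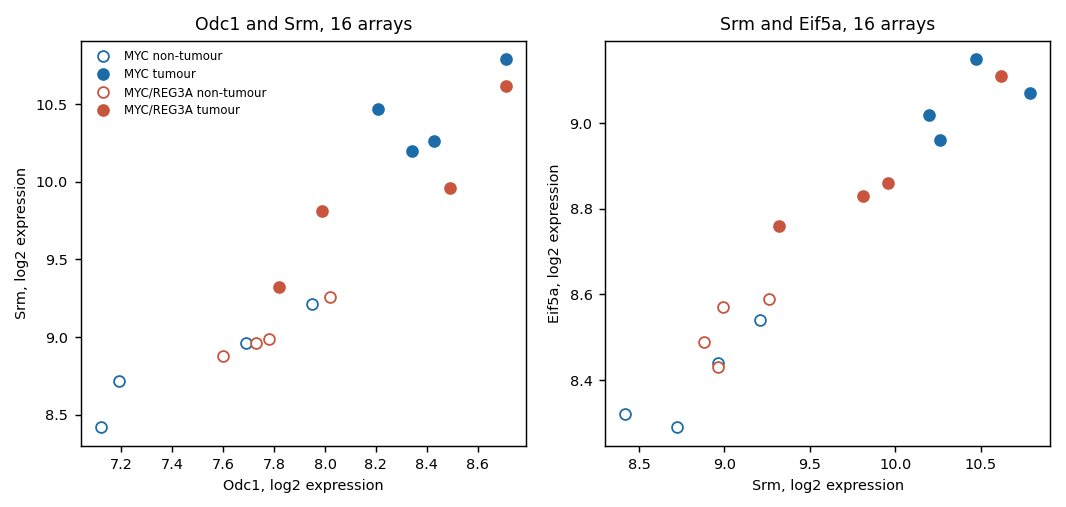
Log2 expression of Srm against Odc1 (left) and of Eif5a against Srm (right) on the 16 arrays, blue for MYC and red for MYC/REG3A, open for non-tumour liver and filled for tumour. In both panels the MYC/REG3A tumours run from near the non-tumour livers up to the MYC tumours.

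Around these genes, 43 others of polyamine metabolism and of linked arginine, ornithine, methionine and amine routes were listed, of which 39 had a row and 32 were tested. In the MYC tumours 5 of the 32 rose and 4 fell (median -0.05, against -0.03 over all tested genes), where 17.4% of all tested genes were called higher and 15.8% lower, so these counts are near the background. In the MYC/REG3A tumours 2 rose and 0 fell (median -0.02, also -0.02 over all tested genes), where 7.58% were called higher and 4.88% lower. At an unadjusted p below 0.05 there were 14 and 9 of the 32, against 44.4% and 30.1% of all tested genes in the tumours of the 2 genotypes. Between genotypes 0 of 32 passed in either tissue or in the change, with 2, 4 and 1 at an unadjusted p below 0.05 for non-tumour liver, tumours and the change (5.45%, 10.6% and 5.58% of all tested genes).

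Among 9 genes of ornithine supply and use, 3 fell in the MYC tumours and 0 rose, where 15.8% of all tested genes fell and 17.4% rose. In the MYC/REG3A tumours 0 of 9 passed, and 2 had an unadjusted p below 0.05, against 30.1% of all tested genes. Oat, the mitochondrial aminotransferase that takes ornithine away towards glutamate and proline, was 11.04, 11.72, 10.33 and 12.00 in MYC non-tumour livers and 9.65, 9.37, 10.01 and 8.81 in the tumours, without overlap, as 14.1% of all tested genes did downwards. It fell by 1.81 (SE 0.507, limma adjusted p = 0.0222), a call lost without MYC mouse 2 (-1.63, limma adjusted p = 0.0704) or MYC mouse 4 (-1.35, limma adjusted p = 0.105). The MYC/REG3A tumours read 10.70, 12.03, 10.38 and 13.00, the tumour of mouse 4 being higher than any non-tumour liver (12.11, 12.25, 12.01 and 11.76), and the mean difference was -0.50 (95% interval -1.64 to 0.63, limma adjusted p = 0.547). Between the tumours of the genotypes Oat differed by 2.06 (MYC/REG3A minus MYC, 95% interval 1.04 to 3.09), without overlap, as 1.63% of all tested genes did in that direction, and did not pass over all genes (limma adjusted p = 0.227). That difference was 1.08 without MYC/REG3A mice 2 and 4 (limma adjusted p = 0.93). Gatm, which uses arginine for creatine synthesis and releases ornithine, fell by 1.05 (SE 0.203, limma adjusted p = 0.00439), and Arg2, the mitochondrial arginase, by 0.56 (SE 0.131, limma adjusted p = 0.0101). Their differences in MYC/REG3A tumours were -0.61 (limma adjusted p = 0.0768; 0.0482 without MYC mouse 4) and -0.34 (limma adjusted p = 0.112). Arg1, the arginase of the urea cycle and the main source of ornithine in liver, differed by -0.17 in MYC and -0.27 in MYC/REG3A tumours (95% intervals -0.74 to 0.41 and -0.84 to 0.30).

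Among 7 tested genes of S-adenosylmethionine supply and of the salvage of methylthioadenosine, the by-product of spermidine and spermine synthesis, 2 rose and 1 fell in the MYC tumours (17.4% and 15.8% of all tested genes). Mtap, the phosphorylase that clears methylthioadenosine, read 8.01, 7.84, 7.85 and 7.86 in MYC non-tumour livers and 8.87, 8.88, 8.76 and 8.52 in the tumours. These values are close together within each group and rose by 0.87 (SE 0.169, 1.82-fold, limma adjusted p = 0.00459). For MYC/REG3A mice Mtap read 7.91, 7.97, 8.03 and 8.09, and 9.13, 8.40, 8.28 and 8.15 in the tumours, a difference of 0.49 without overlap (11.2% of all tested genes upwards) that did not pass (limma adjusted p = 0.0841). Mri1, the next enzyme of the salvage route, rose by 0.52 in MYC tumours (SE 0.109, limma adjusted p = 0.00597) and differed by 0.31 in MYC/REG3A tumours (limma adjusted p = 0.0906; 0.0414 without the mouse block). Mat1a, the S-adenosylmethionine synthetase of adult liver, fell by 0.43 (SE 0.129, limma adjusted p = 0.0284), a call lost without MYC mouse 2, 3 or 4 (limma adjusted p = 0.0612, 0.0951 and 0.122). In the MYC/REG3A tumours 0 of 7 passed, with 2 of 7 at an unadjusted p below 0.05, near the 30.1% of all tested genes. No row with a single symbol was found for Mat2a.

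Of the 4 genes of hypusine formation, Eif5a rose in both genotypes and the other 3 did not pass in either. Over all tested genes 17.4% were called higher in MYC and 7.58% in MYC/REG3A tumours. At an unadjusted p below 0.05 there were 2 and 1 of the 4, against 44.4% and 30.1% of all tested genes. Eif5a read 8.44, 8.54, 8.29 and 8.32 in MYC non-tumour livers and 9.15, 9.07, 8.96 and 9.02 in the tumours, and 8.43, 8.57, 8.59 and 8.49 against 9.11, 8.83, 8.86 and 8.76 in MYC/REG3A mice. No tumour of either genotype overlapped with the non-tumour livers, as held upwards for 16% of all tested genes in MYC and 11.2% in MYC/REG3A mice. The rises were 0.65 (SE 0.103, 1.57-fold, limma adjusted p = 0.00202) and 0.37 (SE 0.103, 1.29-fold, limma adjusted p = 0.044). The second was just past the threshold and was lost without any 1 of the MYC/REG3A mice (limma adjusted p = 0.067 to 0.179), without MYC mouse 1, 3 or 4 (limma adjusted p = 0.0562 to 0.0628), without MYC/REG3A mice 2 and 4 (0.101) and with arrays centred on their median (0.0529). The hypusine enzymes Dhps and Dohh differed by -0.14 and 0.10 in MYC and by 0.08 and -0.02 in MYC/REG3A tumours, all with intervals across 0. Oaz2, a second antizyme gene, differed by -0.28 (limma adjusted p = 0.0931; -0.40 and 0.033 without MYC mouse 2) and 0.13 (limma adjusted p = 0.496), and of the 2 tested genes of its list 0 passed in either genotype, with 1 at an unadjusted p below 0.05 in MYC tumours and 0 in MYC/REG3A tumours (44.4% and 30.1% of all tested genes).

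Of 5 tested genes of polyamine transport 0 passed in either genotype (1 of 5 at an unadjusted p below 0.05 in each, against 44.4% of all tested genes in MYC and 30.1% in MYC/REG3A tumours). Of 5 tested genes of further acetylation, deacetylation and amine oxidation 2 rose in MYC tumours and 1 in MYC/REG3A tumours, where 17.4% and 7.58% of all tested genes did. Aoc2, a copper amine oxidase whose substrates were not measured, rose by 0.61 (SE 0.158, limma adjusted p = 0.016) and by 0.70 (SE 0.158, limma adjusted p = 0.0235). Its level was 5.71 to 5.94 over the 8 non-tumour livers and 6.04 to 6.91 over the 8 tumours. All tumours lay above all non-tumour livers for 16% of all tested genes within MYC and 11.2% within MYC/REG3A mice. The share over both genotypes together was not computed. The Aoc2 call was lost in MYC tumours without MYC mouse 4 (0.57, limma adjusted p = 0.0648) and in MYC/REG3A tumours without mouse 1 or 3 (0.53 and 0.61, limma adjusted p = 0.11 and 0.117). Hdac10, a deacetylase of acetylated polyamines, rose by 0.54 in MYC tumours (SE 0.178, limma adjusted p = 0.0407), a call lost with no filter on low values, without MYC mouse 1, 3 or 4 and without MYC/REG3A mouse 2 or 4 or both (limma adjusted p = 0.0556 to 0.16), and differed by 0.48 in MYC/REG3A tumours (limma adjusted p = 0.106). Without MYC/REG3A mice 2 and 4, Aoc2 rose and Sat2 fell in the other 2 MYC/REG3A tumours and no other gene of the lists passed (1.08 and -0.74, SE 0.146 and 0.19, limma adjusted p = 0.00882 and 0.0487); Sat2 was named after its values were seen.

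**Figure D4:**
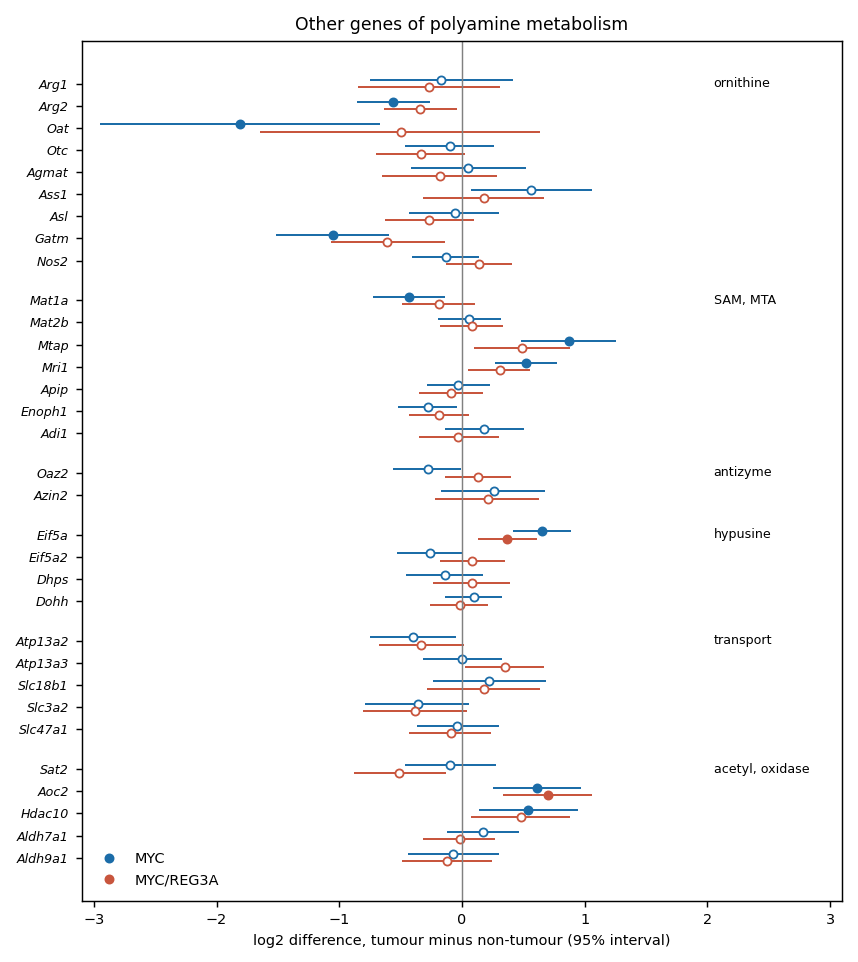
Difference in log2 expression between tumour and non-tumour liver (x axis, mean of 4 mice with limma's 95% interval) for the 32 other tested genes of polyamine metabolism and linked routes, grouped by list (ornithine supply and use, S-adenosylmethionine and methylthioadenosine, antizyme, hypusine, transport, acetylation and oxidases), blue for MYC and red for MYC/REG3A, filled where limma's adjusted p was below 0.05. Of the filled points, Oat lies farthest to the left at -1.81 and Mtap farthest to the right at 0.87.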

How the data were processed

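The authors deposited log2 expression values that the submitters' processing notes credit to RMA and to Expression Console 1.4.1 of Affymetrix; this method corrects background, makes the array distributions equal and summarises probes per transcript. That the logarithm is to base 2 was judged by the span of the values, and run settings and the build of the array design are not given in the sources used here. Equal distributions make every change relative to the other genes. Array medians were 4.896 to 4.973, and signal over background is unknown, so the number of arrays limits the precision. The platform annotation gave 1 symbol to 23521 of 41345 rows; for a gene with several rows the highest mean over 16 arrays was used. The members and gene lists were chosen with earlier results of these data known.

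A gene was tested when it exceeded the array median in at least 4 arrays. limma 3.58.1 in R 4.3.3 (lmFit, eBayes, 2-sided, Benjamini-Hochberg over 13555 genes, threshold 0.05) was fitted to all 16 arrays, so each SE pools the spread of all groups. Mouse entered as a block in the tumour changes and in their difference, because a tumour and a non-tumour sample share 1 animal per the labels; deviations of a mouse's paired arrays from the group means correlated at 0.0963 to 0.325. Comparisons between genotypes had no block, since their mice are different animals. The script was tested on simulated data. Genes of the lists were named by p, up to 3 per direction and list, besides a fixed set. Alternatives were no or a stricter filter, averaged rows, recentred or requantiled arrays, another prior, array weights, no block, and leaving out mice. MYC/REG3A mice 2 and 4 changed least on these same arrays, so results without them are a description and no separate test.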

Additional observations from a re-analysis of the deposited data

Results flagged for a closer look

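Within the groups of 4 arrays, 3 values stood far from the other 3 arrays of their group, out of 76 groups of named genes examined; chance gives such a gap in about 1 of 20 groups. Azin1 was 7.55 in the non-tumour liver of MYC/REG3A mouse 1, where the nearest value was 8.18. Mtap was 8.01 in the non-tumour liver of MYC mouse 1 (nearest 7.86), and Dhps was 6.76 in that of MYC mouse 4 (nearest 7.19).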

How the results depend on the processing

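The rises of Odc1 and Srm in MYC tumours passed under all 17 alternatives (0.84 to 1.08 with limma adjusted p of 0.00192 to 0.017, and 1.54 to 1.63 with 0.00025 to 0.0048), so that 2 members were called higher each time. Odc1 in MYC/REG3A tumours passed in none (0.30 to 0.73). The single member called there ranged from 0 to 1 when a mouse was left out, the 0 being without MYC/REG3A mouse 3. All genes called numbered 2975 to 4490 in MYC tumours when a mouse was left out (the lowest without MYC mouse 4) and 273 to 1849 in MYC/REG3A tumours (281 without mouse 1, 273 without mouse 3, 944 without mouse 4). Without the mouse as a replicate block 4419 and 1613 genes were called, the calls of the members stayed, and 0 genes differed in the change between genotypes, where 1 did with the block; that count was also 0 with no filter, a stricter filter or without MYC/REG3A mice 2 and 4, was 3 with centred arrays, 2 with arrays quantile normalised again and 3 with array weights, and ranged from 0 to 2 when a mouse was left out. Between genotypes 0 to 22 genes were called in non-tumour liver and 3 to 114 in tumours when a mouse was left out (22 and 21 without MYC mouse 2, 13 without MYC mouse 3, 114 without MYC/REG3A mouse 1), and 0 in tumours without MYC/REG3A mice 2 and 4. That last alternative, added for the lists after the data were seen, left 1 other pathway gene higher and 1 lower in MYC/REG3A tumours, where all mice gave 2 and 0. Leaving out a mouse also leaves fewer arrays, and the causes of these shifts were not tested. Of 510 values of members under alternatives, 17 changed sign, all of them not called before or after.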
